A study of Mus musculus with 16 samples.

Results

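The collagen genes are the genes of the triple-helical proteins that make up much of the extracellular matrix. They were taken here as every gene whose symbol has the form Col, a type number, the letter a and a chain number, and that had a probe set annotated to that gene alone. Each gene was represented by its probe set of highest mean over the 16 arrays. This gave 42 collagen genes among the 18193 genes tested, out of 44 such genes in the RefSeq annotation. No member stands for Col28a1 or Col6a6. The members were sorted into 11 fibrillar genes, the 6 basement membrane genes of type IV collagen, and 25 others.

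Ventricular myocardium was taken from male mice, 14 weeks old and of CD1 background. The mice were either A2AR KO (lacking the adenosine receptor A2AR, a cell surface protein) or WT littermates from one breeding series. Each mouse had one intraperitoneal dose of either LPS from E. coli (lipopolysaccharide, the bacterial endotoxin, at 20 mg/kg) or the same volume of saline, 24 h earlier. The 4 groups were WT saline, WT LPS, KO saline and KO LPS, with 4 arrays each. The knockouts came from a sub-colony of an established A2AR KO line, and no cell type restriction of the deletion is named. Nothing in the labels says how the numbered samples of a group relate to each other, so p-values measure the spread between these samples, part of which may be technical.

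Collagen chains are made in the endoplasmic reticulum, where prolines and lysines are hydroxylated, some hydroxylysines are glycosylated and 3 chains wind into a helix. Fibrillar procollagens are then trimmed outside the cell, assemble into fibrils and are cross-linked by lysyl oxidases, whereas type IV chains form a sheet-like network in basement membranes. In the heart, fibroblasts are the main source of types I, III, V and VI, and type IV surrounds cardiomyocytes and capillaries. In total RNA of a tissue, fewer cells of a type and less RNA per cell cannot be told apart.

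Values are log2 probe set signals, and their overall median was 4.637 (4.611 to 4.666 across arrays). Signals of different probe sets cannot be set against each other, so a level is compared only with the level of the same gene in other arrays. Of the 42 members, 26 had a mean above that median (7 fibrillar, all 6 type IV and 13 others), and 16 lay at or under it. Cardiomyocyte markers lay between 13.7 and 14.0 in mean log2 value in all 16 arrays. Skeletal muscle markers averaged 6.01 and 7.74 in WT saline arrays 1 and 4, against 3.72 to 3.90 in the other 14 arrays, so collagen calls in WT hearts are also given without these arrays where that changes a call.

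Several collagen genes lie next to each other in the genome, and the order of RefSeq genes (GRCm38.p6) gave 7 neighbouring pairs among the members. Of the type IV genes, Col4a1 neighbours Col4a2, Col4a4 neighbours Col4a3 and Col4a6 neighbours Col4a5. The others were Col6a2 with Col6a1, Col3a1 with Col5a2, Col9a1 with Col19a1 and Col6a5 with Col6a4. The start sites of Col4a1 and Col4a2 are 21 bases apart on chromosome 8. Col4a1 starts at 11312826 on the minus strand and Col4a2 at 11312805 on the plus strand. Each gene is thus read across the start of the other, and the annotated transcripts overlap between the 2 starts. The stretch between them is shown because this is the pair that rose after LPS (GRCm38.p6, chr8:11312801-11312830, plus strand), and the capitals mark the 22 bases from one start to the other.
Col4a1 and Col4a2: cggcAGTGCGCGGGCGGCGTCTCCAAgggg

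Promoter windows from RefSeq (GRCm38.p6) were on hand for 33 of the 42 members. Below are the 150 bases before the start of 4 members that fell after LPS (Col6a1, Col6a3, Col8a1 and Col15a1) and of 2 fibrillar members that were not called (Col1a2 and Col3a1), written 5′ to 3′ along the strand of the gene. Capitals mark letters found on either strand from a list of 6 motifs: the CCAAT box, the GC box (GGGCGG), the TATA box (TATAAA), the AP-1 element (TGANTCA), the STAT element (TTCNNNGAA) and the SMAD element (CAGACA). The windows are, in order, chr10:76726045-76726194 (minus), chr1:90843972-90844121 (minus), chr16:57754738-57754887 (minus), chr4:47207862-47208011 (plus), chr6:4505468-4505617 (plus) and chr1:45311388-45311537 (plus).
Col6a1: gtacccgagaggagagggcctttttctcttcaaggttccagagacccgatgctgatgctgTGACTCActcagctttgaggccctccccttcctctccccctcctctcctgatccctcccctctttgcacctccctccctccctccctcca
Col6a3: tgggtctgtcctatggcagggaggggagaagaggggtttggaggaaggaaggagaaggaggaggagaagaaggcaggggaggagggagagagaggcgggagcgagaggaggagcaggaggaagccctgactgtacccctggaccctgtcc
Col8a1: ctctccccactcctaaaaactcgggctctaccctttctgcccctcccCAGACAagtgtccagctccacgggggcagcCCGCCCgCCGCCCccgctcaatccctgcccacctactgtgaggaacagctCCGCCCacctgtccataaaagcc
Col15a1: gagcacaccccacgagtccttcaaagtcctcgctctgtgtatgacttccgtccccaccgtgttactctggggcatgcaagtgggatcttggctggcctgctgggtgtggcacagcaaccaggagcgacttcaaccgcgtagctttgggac
Col1a2: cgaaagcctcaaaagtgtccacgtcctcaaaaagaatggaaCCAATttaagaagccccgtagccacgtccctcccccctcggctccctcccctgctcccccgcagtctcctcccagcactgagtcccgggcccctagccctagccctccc
Col3a1: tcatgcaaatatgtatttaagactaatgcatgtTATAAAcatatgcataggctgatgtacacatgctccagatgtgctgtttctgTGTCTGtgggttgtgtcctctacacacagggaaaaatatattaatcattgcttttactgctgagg
In these 6 windows Col6a1 held an AP-1 match, Col8a1 held GC boxes and a SMAD match, Col1a2 a CCAAT box, and Col3a1 a TATA box and a SMAD match, with no match overlapping another. Some of the 33 genes have more than 1 window, 36 in all. Over the 250 bases before the start, the GC box was found in 21 of these 36 windows, against 32.7% of 32851 windows of all genes. The CCAAT box was found in 13 (33.9% of all windows), the SMAD letters in 8 (17.1%), the TATA box in 5 (12.4%), AP-1 in 1 (6.75%) and STAT in 1 (7.02%). A match describes letters only and says nothing on whether a factor binds.

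LPS was set against saline within each genotype, which asks how matrix genes of the heart respond to endotoxin when the receptor is present or missing. After 24 h, the fall of several collagens and the rise of 2 type IV chains were seen in both genotypes. Of the 42 genes, 2 rose and 10 fell in WT hearts, and 2 rose and 10 fell in KO hearts (limma, adjusted p under 0.05 over all genes tested). That is 28.6% of the members in each, against 20.9% of all genes called in WT hearts (9.28% higher, 11.6% lower) and 26.1% in KO hearts (11.4% higher, 14.7% lower). Among genes with a mean above the median, 12 of 26 members were called in WT hearts against 30.1% of such genes, and 11 of 26 in KO hearts against 37.1%. The ranges of LPS and saline arrays were apart for 10 members in WT hearts (22.8% of all genes) and for 15 in KO hearts (28.5%).

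Of the 42 genes, 9 were called in both genotypes, always in the same direction, against 16.6% of all genes. These were Col4a1 and Col4a2, which rose, and Col4a4, Col6a2, Col6a3, Col8a1, Col14a1, Col15a1 and Col27a1, which fell. Col4a3, Col5a1 and Col6a1 were called in WT hearts and not in KO hearts, and Col4a6, Col8a2 and Col16a1 in KO hearts and not in WT hearts. For none of these 6 was the difference between the genotypes itself called. The median log2 change over the 42 genes was -0.07 in WT and -0.12 in KO hearts, beside -0.0035 and -0.018 over all genes. By class, the medians in WT and KO hearts were -0.52 and -0.17 for the fibrillar genes, -0.27 and -0.15 for type IV, and -0.05 and -0.11 for the others. The WT count fell to 7 genes without WT saline array 2, without WT LPS array 2, without WT LPS array 3, or without WT saline arrays 1 and 4 together. The share of all genes called in these fits was not counted.

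**Figure D1:**
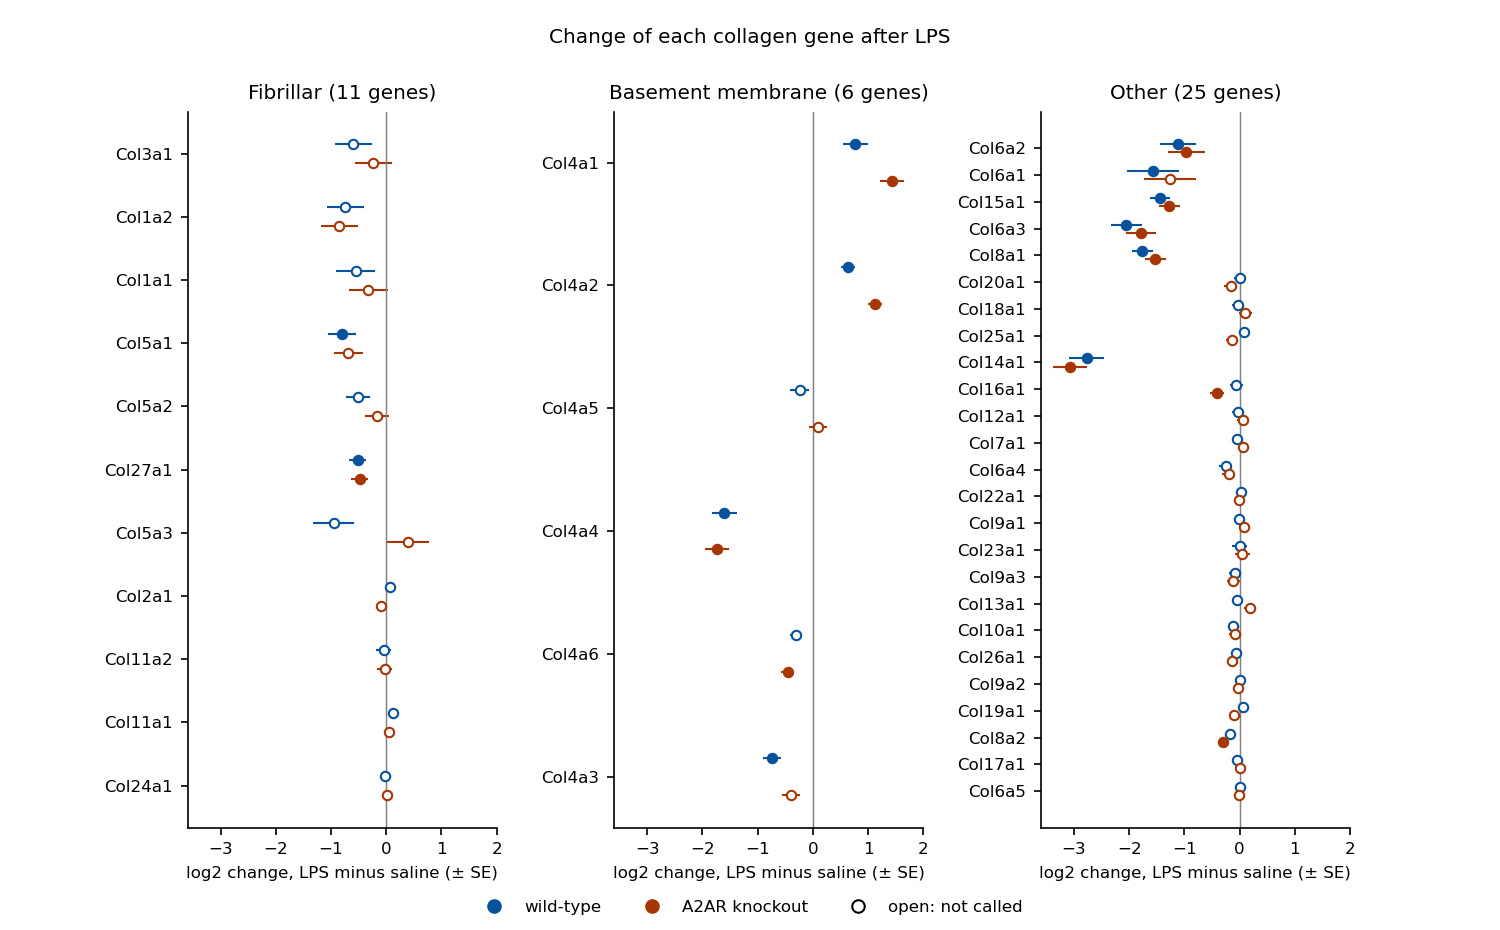
Log2 change after LPS of each of the 42 collagen genes with its standard error, in WT hearts (blue) and A2AR KO hearts (red), in 3 panels by class and ordered within a panel by mean signal. Filled points were called at adjusted p under 0.05. The 2 filled points to the right of 0 in each genotype are Col4a1 and Col4a2, and Col14a1 lies farthest to the left.

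Type IV collagen, the network-forming chain family of basement membranes, moved in both directions. Col4a1 and Col4a2 encode the chains of the helix found in basement membranes throughout the body. In WT hearts, Col4a1 read 10.76, 11.11, 11.50 and 11.32 after saline and 12.05, 12.14, 12.22 and 11.35 after LPS. In KO hearts it read 11.19, 10.48, 10.69 and 11.25 after saline and 12.44, 12.78, 12.19 and 11.93 after LPS. The KO groups do not overlap, whereas WT LPS array 4 lies within the WT saline range. Col4a1 rose by 0.77 ± 0.23 on the log2 scale in WT hearts (1.70-fold, adjusted p = 0.021) and by 1.43 ± 0.23 in KO hearts (2.70-fold, adjusted p = 0.00017). The WT call was lost when WT saline array 1 or 2 or WT LPS array 1, 2 or 3 was left out (0.63 to 0.75, adjusted p 0.053 to 0.080), and with WT saline arrays 1 and 4 left out together (0.64, adjusted p = 0.17).

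Col4a2, whose chain pairs with that of Col4a1 in the same helix, read 10.07, 10.33, 10.46 and 10.41 in WT saline and 10.99, 10.93, 11.07 and 10.82 in WT LPS arrays. KO hearts gave 10.23, 9.86, 10.06 and 10.39 after saline and 11.38, 11.42, 11.22 and 11.01 after LPS. Every LPS array was above every saline array in both genotypes. The rise was 0.63 ± 0.12 in WT hearts (1.55-fold, adjusted p = 0.0012) and 1.12 ± 0.12 in KO hearts (2.17-fold, adjusted p = 4.5e-06), and both calls held in every alternative fit.

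Col4a3, Col4a4 and Col4a5 encode the chains of a second type IV helix that is best known from the kidney glomerulus. Col4a4 read 7.24, 7.34, 7.49 and 7.16 in WT saline and 5.87, 6.23, 5.13 and 5.601 in WT LPS arrays. The KO arrays read 7.31, 7.01, 6.94 and 7.10 after saline and 5.69, 4.78, 5.25 and 5.73 after LPS. All LPS arrays were below all saline arrays in both genotypes. Col4a4 fell by 1.60 ± 0.22 in WT hearts (3.04-fold lower, adjusted p = 5.0e-05) and fell by 1.73 ± 0.22 in KO hearts (3.32-fold lower, adjusted p = 2.0e-05).

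Col4a3, its genomic neighbour, lay nearer the array median. It read 5.08, 5.09, 5.10 and 5.20 in WT saline arrays and 4.83, 4.57, 3.82 and 4.29 in WT LPS arrays. KO hearts gave 4.86, 4.82, 4.67 and 4.91 after saline and 4.63, 4.11, 4.51 and 4.41 after LPS. The LPS arrays were below the saline arrays in both genotypes, and most of them were under the overall median, where the size of a change depends on the background. Col4a3 fell by 0.74 ± 0.16 in WT hearts (adjusted p = 0.0033), and its change of -0.40 ± 0.16 in KO hearts did not pass (adjusted p = 0.086). The KO change passed when WT LPS array 1 or 3 was left out of the shared estimate of the spread (adjusted p = 0.048 and 0.025). It also passed with the compared groups alone.

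Col4a6, the chain of another helix together with Col4a5, read 4.95, 5.11, 4.76 and 4.81 in WT saline and 4.62, 4.45, 4.70 and 4.62 in WT LPS arrays. The KO arrays read 5.003, 4.72, 5.22 and 4.95 after saline and 4.34, 4.69, 4.54 and 4.48 after LPS. The groups do not overlap in either genotype, although the distance between them is small. The change was -0.31 ± 0.11 in WT hearts, which did not pass (adjusted p = 0.065), and -0.46 ± 0.11 in KO hearts, which did (adjusted p = 0.0061). A second probe set of Col4a6 fell in both genotypes (-0.45 ± 0.09, adjusted p = 0.0018, and -0.41 ± 0.09, adjusted p = 0.0032). Col4a5 was not called, with changes of -0.24 ± 0.17 in WT hearts (adjusted p = 0.39) and 0.09 ± 0.17 in KO hearts (adjusted p = 0.75).

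**Figure D2:**
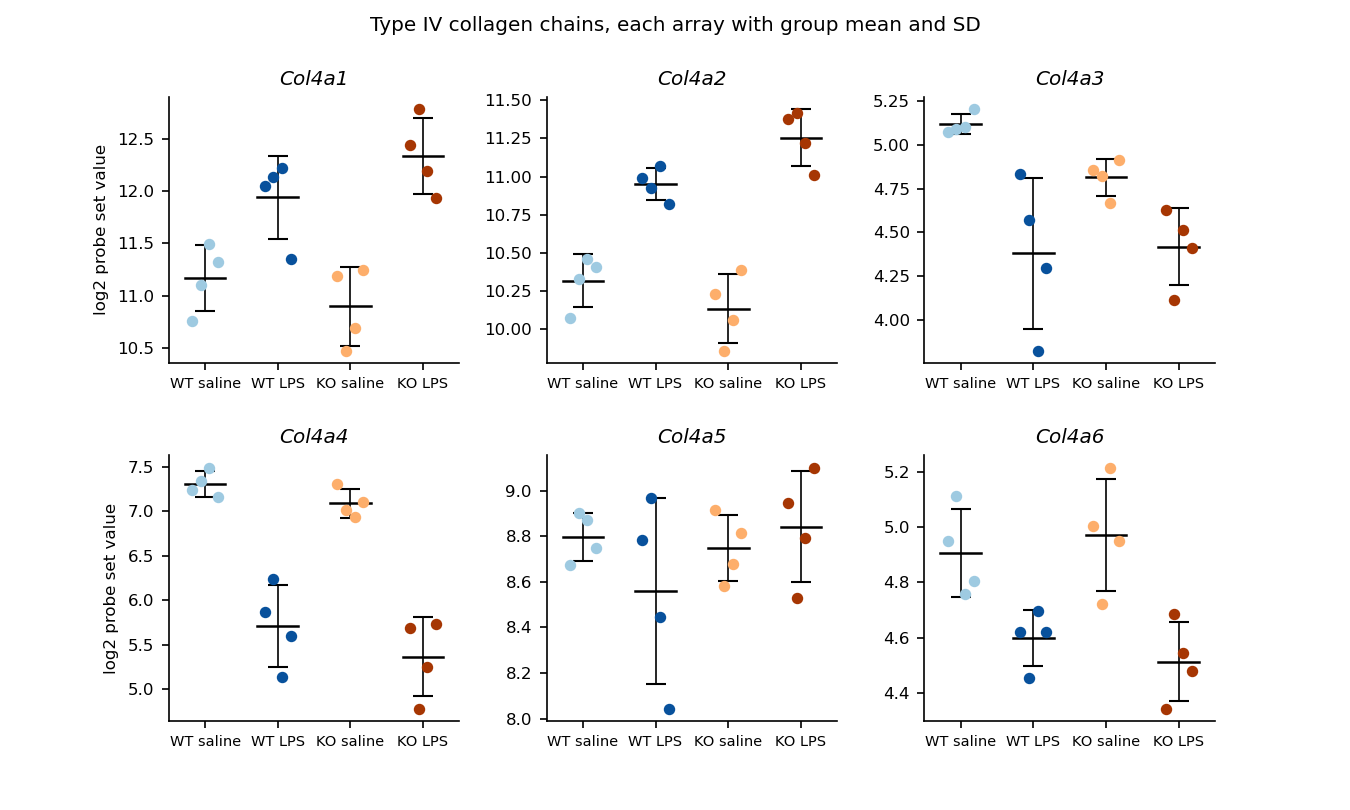
Log2 signal of the 6 type IV collagen genes in each of the 16 arrays (points), with the group mean (horizontal line) and SD (bar) over 4 arrays; each panel has its own axis, which does not start at 0. Col4a1 and Col4a2 are higher after LPS and Col4a4 and Col4a3 lower, while the Col4a5 groups overlap.

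Genes of other basement membrane proteins were called lower where they were called. Of 12 partners of type IV collagen (laminin chains, nidogens, perlecan, agrin and the cross-linking peroxidasin), 6 fell in WT hearts and 4 in KO hearts. Among all genes, 11.6% were called lower in WT and 14.7% in KO hearts. Lama2, the laminin chain of muscle basement membranes, fell by 1.06 ± 0.16 in WT (adjusted p = 0.00011) and fell by 1.28 ± 0.16 in KO hearts (adjusted p = 1.5e-05). Nid2, which links laminin to type IV collagen, fell (-1.13 ± 0.18 and -0.97 ± 0.18), and so did Lamb2, another laminin chain (-0.88 ± 0.21 and -0.89 ± 0.21). The list was chosen with earlier results of these data known, and its median change was -0.48 in WT and -0.36 in KO hearts.

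Type VI collagen forms beaded filaments around cells, and its main heterotrimer holds the chains of Col6a1, Col6a2 and Col6a3. Col6a3 read 8.22, 8.31, 8.38 and 8.55 in WT saline and 6.52, 6.06, 5.62 and 7.06 in WT LPS arrays. KO hearts gave 8.30, 7.96, 8.11 and 8.14 after saline and 6.46, 5.48, 6.81 and 6.60 after LPS. Every LPS array lay below every saline array. Col6a3 fell by 2.05 ± 0.27 in WT hearts (4.14-fold lower, adjusted p = 4.3e-05) and fell by 1.79 ± 0.27 in KO hearts (3.46-fold lower, adjusted p = 0.00013).

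Col6a2 read 9.62, 9.82, 9.67 and 9.91 in WT saline and 9.17, 8.25, 7.53 and 9.62 in WT LPS arrays. In KO hearts it read 9.71, 9.31, 9.68 and 9.72 after saline and 8.66, 7.92, 8.999 and 8.99 after LPS. The groups do not overlap, but WT LPS array 4 touches the lowest saline value to 2 decimals, while WT LPS array 3 is far lower. The change was -1.12 ± 0.33 in WT hearts (adjusted p = 0.024) and -0.96 ± 0.33 in KO hearts (adjusted p = 0.043). The WT call was lost without WT saline array 2 or 4 or WT LPS array 2 or 3 (adjusted p 0.057 to 0.083), with WT saline arrays 1 and 4 left out together (0.13) and with the compared groups alone (0.067). The KO call was lost in 10 of the 16 fits that left out 1 array, those without any of the 8 saline arrays or without KO LPS array 1 or 2 (adjusted p 0.052 to 0.14), and with WT saline arrays 1 and 4 left out together (0.066).

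Col6a1 read 9.31, 9.59, 9.49 and 9.72 in WT saline and 8.80, 7.45, 6.27 and 9.34 in WT LPS arrays. The KO arrays read 9.42, 8.999, 9.34 and 9.38 after saline and 8.08, 7.09, 8.44 and 8.52 after LPS. WT LPS array 4 lies within the WT saline range, and the KO groups do not overlap. Col6a1 fell by 1.56 ± 0.47 in WT hearts (2.96-fold lower, adjusted p = 0.025), and its change of -1.25 ± 0.47 in KO hearts did not pass (adjusted p = 0.061). The WT call was lost without WT saline array 2, 3 or 4 or WT LPS array 2 or 3 (adjusted p 0.051 to 0.079), with WT saline arrays 1 and 4 left out together (0.12) and with the compared groups alone (0.077). Without WT LPS array 3 the change was -1.0. The KO change passed without WT LPS array 3 or 4 or KO LPS array 4 (adjusted p 0.011 to 0.050). It also passed with array weights, with the compared groups alone and with only the genes of a mean above the median. Col6a4 (-0.25 ± 0.12 and -0.19 ± 0.12) and Col6a5 (0.01 ± 0.06 and -0.02 ± 0.06) encode alternative chains and were not called.

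Col14a1 had the largest change of the 42 genes in both genotypes. It encodes a FACIT collagen (fibril-associated, with an interrupted triple helix) that sits on the surface of collagen fibrils. It read 7.14, 7.38, 7.10 and 7.52 in WT saline and 4.46, 4.18, 3.62 and 5.80 in WT LPS arrays. KO hearts gave 7.26, 6.93, 7.32 and 6.97 after saline and 4.499, 3.81, 3.88 and 4.01 after LPS. All LPS arrays but WT LPS array 4 were under the overall median, so the size of the fall is limited by the background. Col14a1 fell by 2.77 ± 0.31 in WT hearts (6.83-fold lower, adjusted p = 7.9e-06) and fell by 3.07 ± 0.31 in KO hearts (8.41-fold lower, adjusted p = 2.3e-06). A second probe set of the gene gave smaller changes, of -1.11 ± 0.19 (adjusted p = 0.00071) and -1.17 ± 0.19 (adjusted p = 0.00035). The third, with a mean of 3.65, changed by -0.15 ± 0.11 in WT hearts (adjusted p = 0.47) and by -0.47 ± 0.11 in KO hearts (adjusted p = 0.0064).

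Col8a1 encodes a short-chain, network-forming collagen of vessel walls and other tissues. It read 7.97, 7.81, 7.67 and 7.65 in WT saline and 6.16, 5.94, 5.75 and 6.19 in WT LPS arrays. KO hearts gave 8.22, 7.79, 7.84 and 7.67 after saline and 6.84, 6.53, 6.30 and 5.74 after LPS. The groups are apart in both genotypes, and the WT LPS arrays lie close together. Col8a1 fell by 1.77 ± 0.19 in WT hearts (3.40-fold lower, adjusted p = 4.6e-06) and fell by 1.53 ± 0.19 in KO hearts (2.89-fold lower, adjusted p = 1.8e-05). All 3 probe sets of Col8a1 fell in both genotypes. Its partner gene Col8a2 had a low signal (3.07 in mean log2 value) and changed by -0.18 ± 0.07 in WT hearts (adjusted p = 0.069) and by -0.30 ± 0.07 in KO hearts (adjusted p = 0.0025).

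Col15a1 encodes a multiplexin, a basement membrane zone collagen that carries an endostatin-like domain. Its values were 7.98, 8.12, 8.19 and 8.30 in WT saline and 7.07, 6.37, 6.26 and 7.11 in WT LPS arrays. KO hearts gave 8.13, 7.71, 8.12 and 8.17 after saline and 6.48, 6.70, 6.92 and 6.95 after LPS. No LPS array reached a saline array. The change was -1.45 ± 0.18 in WT hearts (2.72-fold lower, adjusted p = 2.7e-05), and in KO hearts -1.27 ± 0.18 (2.42-fold lower, adjusted p = 7.9e-05). The other multiplexin, Col18a1, the source of endostatin, was not called (-0.03 ± 0.12 and 0.10 ± 0.12).

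**Figure D3:**
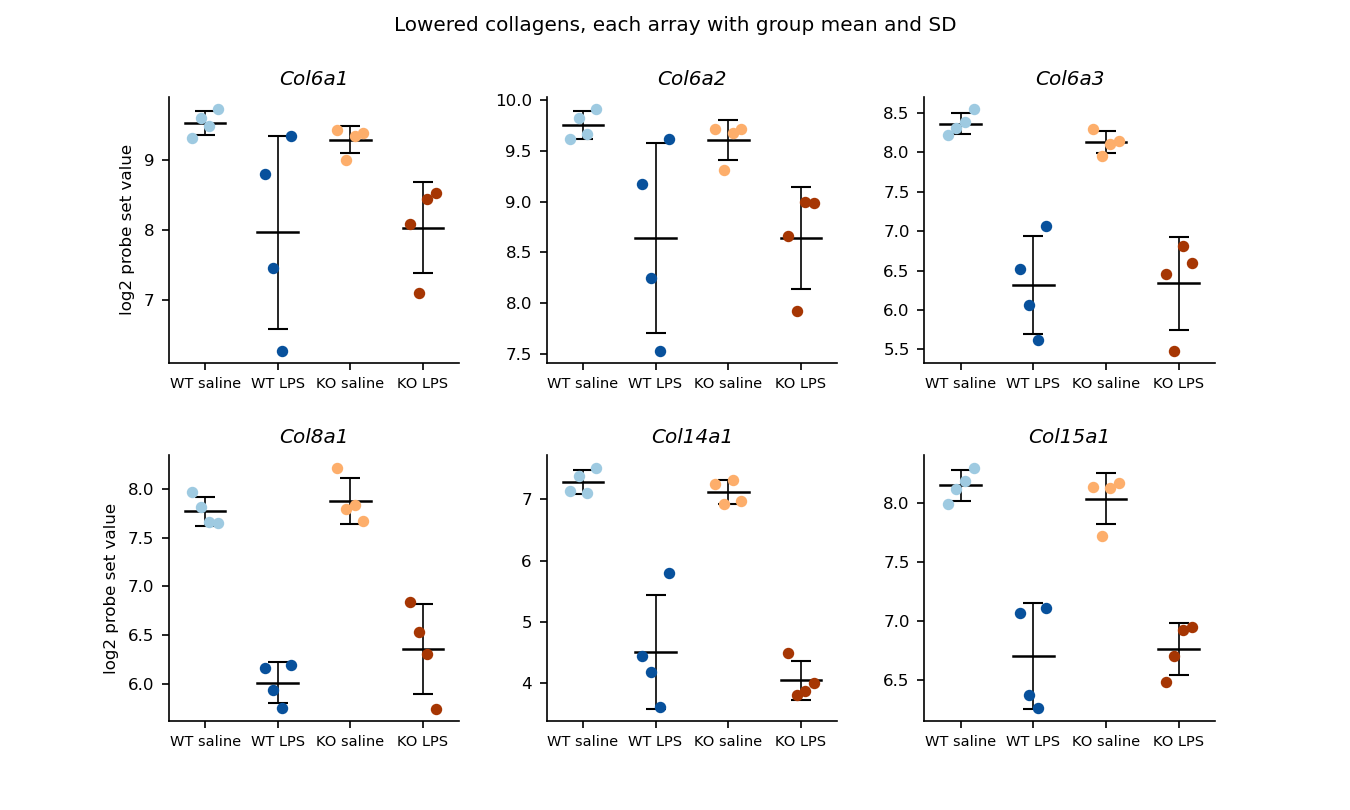
Log2 signal of 6 collagen genes of the other class in each of the 16 arrays (points), with the group mean (horizontal line) and SD (bar) over 4 arrays; each panel has its own axis, which does not start at 0. LPS and saline arrays are apart in both genotypes for Col6a3, Col8a1, Col14a1 and Col15a1, and WT LPS array 4 is near the saline range for Col6a1 and Col6a2.

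The fibrillar collagens, which form the tensile fibers of the tissue, had 2 of 11 genes that fell in WT hearts and 1 in KO hearts, or 18.2% and 9.09% called, beside 20.9% and 26.1% of all genes. Col3a1, the chain of type III collagen, read 11.49, 11.84, 11.82 and 12.03 in WT saline and 11.84, 11.17, 9.99 and 11.79 in WT LPS arrays. In KO hearts it read 11.56, 11.23, 11.54 and 11.70 after saline and 11.37, 10.37, 11.58 and 11.77 after LPS. The groups overlap in both genotypes, with WT LPS array 3 and KO LPS array 2 well below the rest. The changes of -0.60 ± 0.34 in WT hearts (adjusted p = 0.25) and -0.23 ± 0.34 in KO hearts (adjusted p = 0.68) did not pass. Without KO LPS array 2 the KO change was 0.07, with no call.

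Col1a2, one of the 2 chains of type I collagen, read 10.36, 10.56, 10.44 and 10.53 in WT saline and 9.96, 9.29, 8.75 and 10.94 in WT LPS arrays. The KO arrays read 10.70, 10.40, 10.55 and 10.40 after saline and 9.77, 8.90, 9.999 and 9.97 after LPS. In WT hearts LPS array 4 was the highest of all 8 arrays and LPS array 3 the lowest, while the KO groups do not overlap. The changes were -0.74 ± 0.33 (adjusted p = 0.14) and -0.85 ± 0.33 (adjusted p = 0.072), neither called. The KO change passed when WT LPS array 3 or 4 was left out of the shared estimate of the spread (adjusted p = 0.031 and 0.010). It also passed with array weights and with the compared groups alone.

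Col1a1, the other type I chain, had 8.79 to 9.10 in WT saline and 7.43 to 9.51 in WT LPS arrays, 8.40 to 8.79 in KO saline and 7.39 to 8.89 in KO LPS arrays. Its changes of -0.55 ± 0.36 (adjusted p = 0.33) and -0.32 ± 0.36 (adjusted p = 0.57) did not pass. Of the type V chains, which regulate fibril diameter, Col5a1 fell by 0.80 ± 0.26 in WT hearts (adjusted p = 0.037) and changed by -0.69 ± 0.26 in KO hearts (adjusted p = 0.064). The WT call of Col5a1 was lost without any 1 of the 4 WT saline arrays or WT LPS array 2 or 3 (adjusted p 0.050 to 0.11), with WT saline arrays 1 and 4 left out together (0.13), with the compared groups alone (0.099) and with the mean of its probe sets (0.052). Without WT LPS array 3 the change was -0.48. Its KO change passed without WT LPS array 3 or 4 (adjusted p = 0.0091 and 0.025), with array weights and with the compared groups alone. Col5a2 (-0.51 ± 0.22 and -0.17 ± 0.22) was not called, and without KO LPS array 2 its KO change was 0.01. A second, dimmer probe set of Col5a2 fell in WT hearts (-0.65 ± 0.20, adjusted p = 0.034). In KO hearts that probe set was not called (-0.25 ± 0.20, adjusted p = 0.45).

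Col27a1, a fibrillar gene best known from cartilage, fell in both genotypes. It read 6.81, 6.90, 6.78 and 6.97 in WT saline and 6.53, 6.01, 6.22 and 6.65 in WT LPS arrays, and the groups do not overlap. KO hearts gave 7.06, 6.60, 7.01 and 6.66 after saline and 6.30, 6.60, 6.43 and 6.10 after LPS, with KO LPS array 2 at the level of KO saline array 2. The changes were -0.52 ± 0.15 (adjusted p = 0.023) and -0.48 ± 0.15 (adjusted p = 0.030). The WT call was lost without WT saline array 2 or 4 or WT LPS array 2 or 3 (adjusted p 0.057 to 0.089) and with WT saline arrays 1 and 4 left out together (0.15). The KO call was lost without KO saline array 1 or 3 or KO LPS array 1 or 4 (adjusted p 0.071 to 0.094). Col2a1, Col11a1, Col11a2 and Col24a1 had means under the overall median and were not called, with changes between -0.10 and 0.12.

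The fibrillar genes varied more among LPS arrays than among saline arrays. Over the 7 fibrillar genes with a mean above the median, the SD was larger after LPS for 7 of 7 in WT hearts and for 5 of 7 in KO hearts. The share of all genes with a larger SD after LPS was not counted. WT LPS array 3 was the lowest of its group for 6 of these 7 genes, and WT LPS array 4 the highest for 5. KO LPS array 2 was the lowest of its group for 6. Relative to the saline mean of its genotype, the median over these genes was -0.25, -0.94, -1.72 and -0.05 in WT LPS arrays 1 to 4. In KO LPS arrays 1 to 4 it was -0.22, -1.14, -0.04 and -0.09. WT LPS array 3 and KO LPS array 2 were also lowest for the type VI genes, so this is not particular to fibrillar collagens. The medians over Col6a1, Col6a2 and Col6a3 were -0.73, -2.08, -2.74 and -0.19 in WT LPS arrays 1 to 4. In KO LPS arrays 1 to 4 they were -1.21, -2.20, -0.85 and -0.76. The genes share each array, so the fibrillar values are one pattern over 8 arrays and not 7 independent ones.

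Without WT LPS array 4, limma called Col1a1 (-0.92, adjusted p = 0.034), Col1a2 (-1.14, adjusted p = 0.0025), Col5a2 (-0.66, adjusted p = 0.029) and Col5a3 (-1.19, adjusted p = 0.030) lower in WT hearts. The WT count over all collagens was 16 in that fit. The share of all genes called in it was not counted, so the rise in the count is not read as particular to collagens. The mean of 12 fibroblast markers followed the same order of arrays in WT LPS hearts, at 8.49, 8.23, 8.03 and 9.23 in arrays 1 to 4, against 9.08 to 9.23 after saline. In KO hearts it was 8.26, 7.86, 8.55 and 8.39 after LPS and 9.10 to 9.15 after saline, with the lowest value again in KO LPS array 2. Endothelial markers averaged 8.97 in WT LPS array 4 and 8.20 to 8.42 in the other WT LPS arrays. The order of the WT LPS arrays was not particular to fibroblast markers. It was the same for the endothelial, smooth muscle and pericyte, mesothelial and adipocyte lists. Leukocyte markers, at 8.06, 7.85, 7.53 and 8.16 in WT LPS arrays 1 to 4, had it too. The cardiomyocyte, skeletal muscle, cartilage and erythroid lists had other orders. The part of these cell types in the collagen values was not tested.

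**Figure D4:**
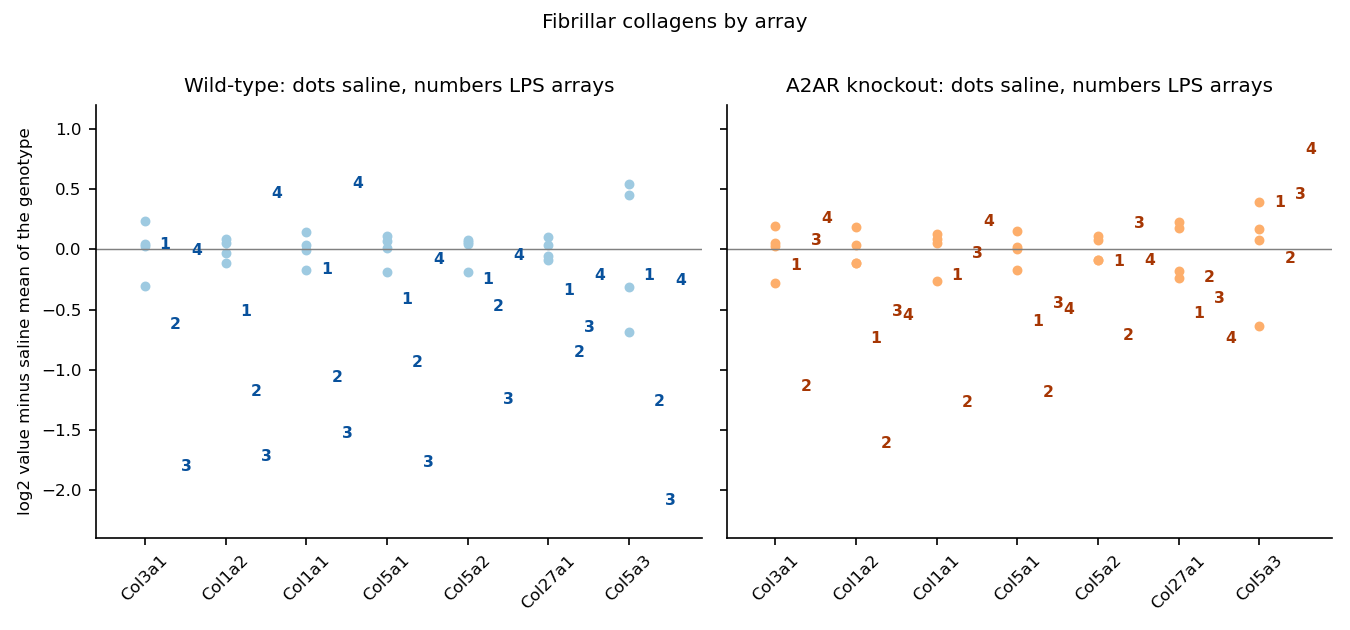
Log2 signal of the 7 fibrillar collagen genes with a mean above the median, minus the saline mean of the same genotype and gene. Dots are saline arrays and digits are the numbers of the LPS arrays, with WT on the left and A2AR KO on the right. Digit 3 on the left and digit 2 on the right are the lowest for 6 of 7 genes each.

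Of the 42 genes, 27 had more than 1 probe set, 82 in all, and each was also fitted on its own with p-values adjusted over 45037 probe sets. By this fit, 3 probe sets of the collagens were higher and 17 lower in WT hearts, and 5 were higher and 17 lower in KO hearts. The share of all 45037 probe sets called in this fit was not counted, so these counts have no background beside them. No gene had called probe sets of both signs. Probe sets of the type I and III genes differed in direction in KO hearts, as did those of some other members, such as Col18a1 (0.10 ± 0.12 and -0.34 ± 0.14, neither called). For Col1a1 the second probe set read 6.37, 6.17, 6.23 and 6.62 in KO saline and 7.24, 6.76, 7.11 and 7.68 in KO LPS arrays, which do not overlap, and it rose by 0.85 ± 0.25 (adjusted p = 0.026). In WT hearts the same probe set changed by 0.05 ± 0.25 (adjusted p = 0.94).

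The second probe set of Col3a1 changed by -0.30 ± 0.37 in WT hearts (adjusted p = 0.69) and by 0.87 ± 0.37 in KO hearts (adjusted p = 0.12), where the brighter one gave -0.23. For Col1a2 the second probe set gave -0.36 ± 0.27 and 0.42 ± 0.27, neither called. The direction of Col1a1, Col1a2 and Col3a1 in KO hearts therefore depends on the probe set read. Both probe sets of Col4a1 rose in both genotypes, the second by 0.56 ± 0.14 (adjusted p = 0.0093) and 0.79 ± 0.14 (adjusted p = 0.00053). Of the 3 probe sets of Col4a4, 2 fell in both genotypes. One dim probe set of Col12a1, a FACIT collagen, rose in KO hearts by 0.58 ± 0.17 (adjusted p = 0.022), while the brightest one of that gene gave 0.06 ± 0.11.

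**Figure D5:**
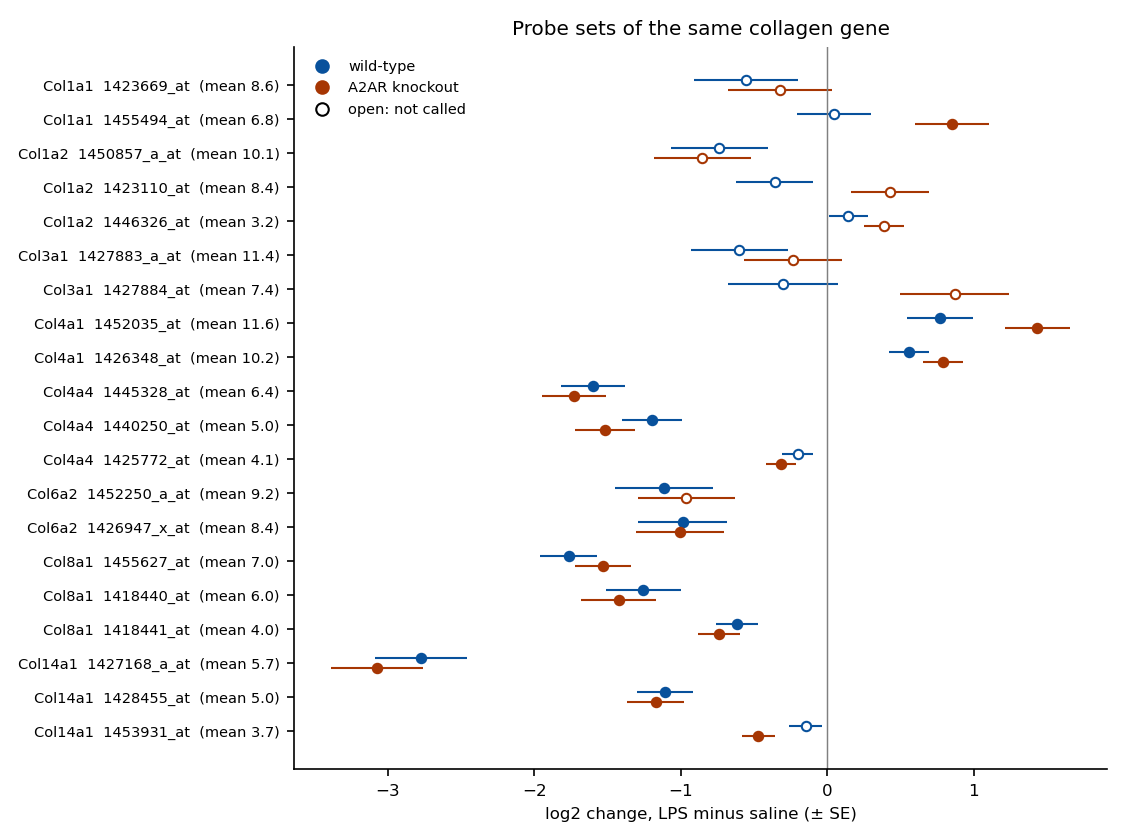
Log2 change after LPS of every probe set of 8 collagen genes with its standard error, in WT hearts (blue) and A2AR KO hearts (red), from the fit of all probe sets; the mean log2 signal stands beside each name. Filled points were called at adjusted p under 0.05. Probe sets of Col4a1, Col4a4, Col6a2, Col8a1 and Col14a1 lie on one side of 0, and those of Col1a1, Col1a2 and Col3a1 lie on both.

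The remaining members changed little. Col16a1, a FACIT collagen, changed by -0.06 ± 0.12 in WT hearts (adjusted p = 0.82) and fell by 0.41 ± 0.12 in KO hearts (adjusted p = 0.021), a call lost without KO saline array 1 or 3 or KO LPS array 1 or 2 (adjusted p 0.052 to 0.069). None of the 4 transmembrane collagens (Col13a1, Col17a1, Col23a1 and Col25a1) was called by limma, and their changes lay between -0.14 and 0.18. At an unadjusted limma p under 0.05, 0 of 4 passed in either genotype, beside 30.9% of all genes in WT and 35.8% in KO hearts. Col13a1, Col17a1 and Col23a1 had means under the overall median, where the size of a change depends on the background. Col7a1, the anchoring fibril chain of the skin, changed by -0.05 ± 0.10 and 0.07 ± 0.10. Of the 16 genes at or under the overall median, Col8a2 alone was called, in KO hearts.

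The genotypes were compared after saline and after LPS, and their LPS responses were compared with each other, to ask whether collagen levels depend on the A2AR. Limma called 0 of the 42 genes in each of these 3 comparisons, beside 0.0055% of all genes after saline, 0.0055% after LPS and 0% for the difference of the responses. The smallest adjusted p-values among the collagens were 1, 0.66 and 0.96. At an unadjusted p under 0.05 there were 1, 2 and 2 collagen genes, against 3.48%, 7.56% and 4.47% of all genes. The rises of Col4a1 and Col4a2 were larger in KO than in WT hearts by 0.66 ± 0.32 (95% interval -0.01 to 1.34) and by 0.49 ± 0.17 (0.12 to 0.85), neither past adjustment (adjusted p = 0.96 for both). The second probe set of Col4a1 gave a smaller difference, 0.23 ± 0.19 (adjusted p = 0.95 in the fit of all probe sets).

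Col5a3, another type V chain, was the member of smallest p after saline. It read 5.94, 6.31, 7.08 and 7.16 in WT saline and 5.64, 4.92, 5.74 and 5.95 in KO saline arrays, and the top KO value overlaps the lowest WT value. After LPS it read 6.41, 5.36, 4.54 and 6.36 in WT and 5.95, 5.49, 6.02 and 6.39 in KO hearts. The difference after saline was -1.06 ± 0.38 (adjusted p = 1), and the LPS change was -0.95 ± 0.38 in WT hearts (adjusted p = 0.086) and 0.40 ± 0.38 in KO hearts (adjusted p = 0.50). Its responses differed by 1.35 ± 0.53 (adjusted p = 0.96). The saline arrays of Col1a1 and Col4a3 did not overlap between the genotypes, with KO minus WT differences of -0.30 ± 0.36 and -0.30 ± 0.16 (adjusted p = 1 for both). The share of all genes whose saline arrays were apart between the genotypes was not counted. These 2 genes are therefore not read as a genotype difference. With 4 arrays a group, an interval of the difference as wide as that of Col6a1 (0.31, -1.10 to 1.72) does not show that the genotypes act alike.

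Genes that make and handle collagen were counted in lists chosen with earlier results of these data known, and their counts stand beside 20.9% of all genes called in WT and 26.1% in KO hearts. Of 17 genes of chain modification and folding, 1 rose and 4 fell in WT hearts, and 3 rose and 7 fell in KO hearts. Plod3, a lysyl hydroxylase and glycosyltransferase, rose by 0.85 ± 0.11 in WT (adjusted p = 4.0e-05) and by 0.68 ± 0.11 in KO hearts (adjusted p = 0.00028). Colgalt2, a collagen galactosyltransferase, fell (-0.84 ± 0.16 in WT and -1.09 ± 0.16 in KO hearts, the order kept for the genes that follow). The prolyl hydroxylase subunits P4ha1 (-0.55 ± 0.17 and -0.70 ± 0.17) and P4ha2 (-0.82 ± 0.22 and -0.88 ± 0.22) fell in WT and KO hearts.

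Of 12 genes of propeptide cleavage and assembly, 3 rose and 3 fell in WT hearts and 3 rose and 4 fell in KO hearts. Lox, the lysyl oxidase that cross-links collagen and elastin, rose by 3.20 ± 0.27 in WT (adjusted p = 2.6e-07) and by 3.91 ± 0.27 in KO hearts (adjusted p = 2.6e-08). Loxl3, a related oxidase, rose by 0.99 ± 0.20 and 1.12 ± 0.20. Pcolce2, an enhancer of procollagen cleavage, fell by 1.39 ± 0.39 (adjusted p = 0.018) and fell by 2.09 ± 0.39 (adjusted p = 0.00083), and the procollagen protease Adamts3 fell (-0.56 ± 0.14 and -0.76 ± 0.14).

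Among 11 collagen-degrading enzymes and inhibitors, 4 rose and 2 fell in WT hearts, and 5 rose and 2 fell in KO hearts. Timp1, an inhibitor of metalloproteinases, rose by 4.32 ± 0.22 in WT (adjusted p = 6.9e-10) and by 4.62 ± 0.22 in KO hearts (adjusted p = 3.1e-10), whereas Timp2, of the same family, fell (-1.32 ± 0.18 and -1.28 ± 0.18). The neutrophil collagenase Mmp8 rose by 1.14 ± 0.22 and 1.51 ± 0.22, and Fap, a fibroblast surface protease, fell (-1.30 ± 0.15 and -1.29 ± 0.15). Of 9 collagen receptors, 1 rose and 1 fell in WT hearts and 3 rose and 1 fell in KO hearts. The integrin chain Itga1 rose by 0.43 ± 0.14 and 0.61 ± 0.14, and Mrc2, a receptor that takes up collagen fragments, fell (-0.88 ± 0.24 and -0.94 ± 0.24).

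Of 15 regulators of collagen transcription, 2 rose and 3 fell in WT hearts, and 3 rose and 2 fell in KO hearts. Tgfbr2, a receptor chain for TGF-beta, rose by 0.98 ± 0.12 (adjusted p = 2.7e-05) and 1.12 ± 0.12 (adjusted p = 5.7e-06), and Stat3, a transcription factor of cytokine signaling, by 1.29 ± 0.13 and 1.41 ± 0.13. The ligand Tgfb2 rose in KO hearts by 1.41 ± 0.33 (adjusted p = 0.0041), with a change of 0.56 ± 0.33 in WT hearts (adjusted p = 0.27). Tcf21, a transcription factor of cardiac fibroblasts that is also in the fibroblast list, fell (-1.16 ± 0.23 and -1.36 ± 0.23).

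Markers of the cell types that a ventricular sample can hold were counted in the same way. Of 12 fibroblast markers, 1 rose and 6 fell in WT hearts and 1 rose and 7 fell in KO hearts, with median changes of -0.86 and -1.21. Lum, a small proteoglycan of collagen fibrils, fell (-1.78 ± 0.27 and -2.24 ± 0.27), and Scara5, a ferritin receptor, rose by 1.13 ± 0.13 and 0.93 ± 0.13. All 12 had a mean above the overall median, and the list mean ranged from 9.08 to 9.23 in WT saline, 8.03 to 9.23 in WT LPS, 9.10 to 9.15 in KO saline and 7.86 to 8.55 in KO LPS arrays. Of 10 smooth muscle and pericyte markers, 8 fell in each genotype, among them the smooth muscle protein Tagln (-2.09 ± 0.19 and -1.78 ± 0.19). Their list mean ranged from 9.20 to 9.49 and 9.10 to 9.49 in WT and KO saline and from 7.87 to 8.70 and 8.32 to 8.55 in WT and KO LPS arrays. The part of either cell type in the collagen changes was not tested.

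The other marker lists were shorter, so their counts cannot be set directly against those of fibroblasts or of smooth muscle and pericytes. Of 8 endothelial markers, 1 rose and 2 fell in WT and 1 rose and 3 fell in KO hearts. Cardiomyocyte markers fell for 4 and 3 of 7, skeletal muscle markers for 1 and 0 of 7, adipocyte markers for 3 and 2 of 3, and mesothelial markers for 1 of 5 in each genotype. The skeletal muscle list averaged 6.01 and 7.74 in WT saline arrays 1 and 4. It averaged 3.89 and 3.87 in WT saline arrays 2 and 3 and 3.78 to 3.87 in WT LPS arrays. Its WT count is therefore not read as a response to LPS. Leukocyte markers rose for 3 and fell for 1 of 5 in each, and 0 and 1 of 2 erythroid markers fell. Cartilage markers averaged 3.51 to 3.93 in every array, below the overall median, and of its 7 genes the matrix protein Comp fell (-1.56 ± 0.23 and -1.71 ± 0.23).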

How the data were processed

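Total RNA of 16 ventricular samples was hybridised as biotinylated cRNA to Affymetrix arrays, 1 array per sample. The deposited values are log2 probe set signals, which the authors made with RMA (background correction, quantile normalization and probe summary), per the submitters' processing notes. The RMA version and the probe set definition were not given in the sources used here. There is no read depth for arrays, so precision is limited by their number. Of 45101 probe sets, 64 controls were left out, 34945 had a single gene symbol, and the one of highest mean per gene left 18193 genes.

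One mean per group was fitted over the 16 arrays in limma 3.58.1 (R 4.3.3; eBayes with an intensity trend, 12 residual degrees of freedom). P-values are two-sided and Benjamini-Hochberg adjusted over all genes tested, and a gene is called at an adjusted p under 0.05. Errors on changes are limma standard errors. The fit was tested on simulated data. LPS was set against saline within both genotypes, KO against WT under both treatments, and the LPS responses against each other.

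The members and lists were chosen with earlier results of these data known. Values per array were given by rule for members called after LPS whose groups do not overlap in both genotypes and for the 5 members of highest mean. Up to 4 called genes per pathway or marker list could be named. The per-array values of Col27a1, Col5a3, Col6a1 and the second Col1a1 probe set are not covered by this rule and were picked with their values in view, as was the set of promoters printed. The pathway lists cover chain modification and folding, propeptide cleavage and assembly, collagen receptors, collagen-degrading enzymes and their inhibitors, basement membrane partners and regulators of collagen transcription. The marker lists cover fibroblasts, smooth muscle and pericytes, endothelium, cardiomyocytes, skeletal muscle, cartilage, adipocytes, mesothelium, leukocytes and erythroid cells.

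The alternatives were the mean of all probe sets of a gene, the probe set of highest variance, a filter on low signal, array medians subtracted, no trend, array weights, the compared groups only, a replicate block, leaving out each array, and leaving out wild-type saline arrays 1 and 4. The fit of every probe set on its own was added after the data were seen. The transcript of the targeted receptor is not reported here, so genotypes rest on the labels.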

Additional observations from a re-analysis of the deposited data

Results flagged for a closer look

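In 80 groups of 4 arrays (20 collagen genes), 4 had an array far from the others of its group. The threshold was one that 1 in 20 independent groups would pass. The genes share each array, so these groups are not independent and the 4 cannot be set against that rate. KO saline array 2 was low for 2 genes: Col15a1 read 7.71 with the next array at 8.12, and Col6a2 read 9.31 with the next at 9.68. WT saline array 1 was low for Col5a2, at 8.50 against 8.72 in the next array. WT LPS array 3 was low for Col8a2, at 2.94 against 3.04 in the next. The low saline values were not limited to the flagged genes. Of the 26 members with a mean above the median, 24 lay below the KO saline mean in KO saline array 2. In WT saline array 1, 20 of these 26 lay below the WT saline mean.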

How the results depend on the processing

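The count of called collagens in WT hearts was 12, and it was 19 with array weights (2 higher, 17 lower), 7 without WT saline arrays 1 and 4, and 7 to 16 over the fits that left out 1 array. The KO count was 12 and ranged from 9 to 16 over those fits. In none of the alternative fits was the share of all genes called counted, so their counts have no background beside them. In every alternative run, 0 collagens were called in the genotype comparisons and in the difference of the responses. The fit on the groups of the comparison only was not run for that difference. Of 24 called single-gene results given above, 16 were called in every alternative, 8 were lost in at least 1 and 0 changed sign. Of 23 that were not called, 9 gained a call in at least 1. Signs changed only among uncalled KO results and 1 genotype difference. The KO change of Col1a1 was 0.26 with the mean of all probe sets. That of Col3a1 was 0.32 with the mean of all probe sets, 0.87 with the probe set of highest variance and -0.399 to 0.0655 over the fits that left out 1 array, positive without KO LPS array 2. That of Col5a2 was -0.302 to 0.00833 over those fits, positive without KO LPS array 2. The KO minus WT difference of Col5a3 after LPS was -0.083 to 0.541, negative without WT LPS array 3. The cause of these changes was not tested, beyond the probe sets and arrays each setting leaves out.

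Replicate numbers did not pair the samples: 3 of 24 same-numbered pairs correlated over 0.1 in their deviations from the group means (median r = -0.03, against 0.03 for other pairs). With the replicate block 13 collagens were called in WT and 12 in KO hearts. Among KO results the block gave Col27a1 an adjusted p of 0.051 and Col6a1 one of 0.045.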
